A study of Homo sapiens with 18 samples.

Results

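The 3 libraries titled dCas9_KRAB and the 3 titled No_lentivirus_control, 6 of the 18 RNA-seq libraries of the series, were compared to describe what K562 cells carrying a repressor without a guide RNA expressed relative to cells that had received no virus. The libraries were taken by their titles, 3 in each group, and all 6 were used. The guideless dCas9-KRAB cells had been transduced with a lentivirus that encodes a catalytically inactive Cas9 (dCas9) fused to the KRAB repressor domain, with polybrene at 4 µg/ml, and had been selected with puromycin at 1 µg/ml from about 96 hours after transduction. The untransduced cells carried no transgene and no guide RNA, and the labels give no separate treatment for them. Virus, dCas9-KRAB, the resistance gene, polybrene and puromycin were all present in the guideless group and absent from, or not listed for, the untransduced group, so their contributions cannot be told apart. The other 12 libraries, all lentiviral, carried dCas9 or dCas9-KRAB with a guide RNA (gRNA) aimed at HS2, an enhancer of the beta-globin genes: dCas9_CR4, dCas9_CR10, KRAB_CR4 and KRAB_CR10, with 3 libraries in each group. The labels do not say whether libraries of a group came from separate cultures beyond the transductions having been made in triplicate. In the fit of all 18 libraries the p-values measure the spread between libraries pooled over the 6 groups, 5 of them lentiviral. Spread within the untransduced group may be technical.

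KRAB domains recruit the co-repressor TRIM28 and, through it, histone deacetylases and methyltransferases that write histone H3 lysine methylation and compact chromatin. A dCas9-KRAB protein is brought to a site by its gRNA, and without a gRNA it has no programmed target, which is why guideless cells serve as a control for the protein. K562 is a human chronic myeloid leukaemia line with erythroid features that carries the BCR-ABL fusion and expresses embryonic and fetal globins, haem enzymes and red cell membrane proteins. In erythroid cells GATA1 binds GATA motifs in many of these genes. Cells that detect viral nucleic acid switch on interferon-stimulated genes, and puromycin stops translation and is exported by some ABC transporters.

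The guideless dCas9-KRAB libraries held 24930756, 26909800 and 25028500 counts and the untransduced libraries 34032962, 32330234 and 30561028 counts, with 2 counts for each sequenced fragment, so every untransduced library was the deeper. Ribosomal RNA genes took 0.596 to 1.09% of the counts in guideless dCas9-KRAB libraries and 0.508 to 0.736% in untransduced libraries. Markers of K562 cells were abundant in both groups, with a summed level of 4863 to 5823 CPM (counts scaled to a common library size) in guideless dCas9-KRAB and 3828 to 6020 CPM in untransduced libraries over 14 markers. Megakaryocyte markers (7, of which 1 was at 0 in all 6 libraries) summed to 9.65 to 17.1 CPM in guideless dCas9-KRAB and 24.3 to 32.2 CPM in untransduced libraries. Myeloid markers (8) summed to 53.5 to 112 CPM in guideless dCas9-KRAB and 93.9 to 138 CPM in untransduced libraries. Lymphoid markers (8, with 1 at 0) summed to 5.85 to 10.5 CPM in guideless dCas9-KRAB and 8.43 to 12.5 CPM in untransduced libraries. Epithelial and stromal markers (8, with 1 at 0) summed to 133 to 157 CPM in guideless dCas9-KRAB and 124 to 149 CPM in untransduced libraries. The untransduced libraries were unequally spaced. Over 12587 genes with a mean of at least 1 CPM, the correlation of log2 CPM across genes was 0.953 between untransduced libraries 1 and 2, 0.978 between 2 and 3 and 0.990 between 1 and 3, against 0.979 to 0.993 within guideless dCas9-KRAB. Untransduced library 2 was the highest untransduced library for 44.4% of the genes and the lowest for 42.5%, library 1 the highest for 42.6% and the lowest for 36.2%, and library 3 the highest for 13% and the lowest for 21.3%. The median within-group standard deviation (SD) of log2 CPM was 0.187 in guideless dCas9-KRAB and 0.223 in untransduced libraries, and the SD was above 0.5 for 6.43% of the genes in guideless dCas9-KRAB and 12.7% in untransduced libraries.

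Guideless dCas9-KRAB cells had less mRNA of ALAS2, the first enzyme of erythroid haem synthesis (2.46-fold lower), of the Rh blood group genes RHD and RHCE (1.98-fold and 2.43-fold lower), of ID3, an inhibitor of DNA binding (3.83-fold lower), and of OAS3, an interferon-stimulated enzyme (3.39-fold lower). They had more mRNA of the AP-1 factor JUND (2.79-fold higher) and of the RNA-binding protein CIRBP (1.9-fold higher). These genes were picked for being called with any 1 of the 6 libraries left out, with n = 3 in each group. That criterion was set after the numbers of calls had been seen, so holding in those fits is no separate support. With all 18 libraries in 1 edgeR fit, 976 of 14713 tested genes differed between guideless dCas9-KRAB and untransduced cells at an adjusted p under 0.05 (6.63%), 423 higher in guideless dCas9-KRAB (2.88%) and 553 lower (3.76%). In 3894 genes (26.5%) the 2 groups did not overlap in CPM, and 3864 genes had an unadjusted p under 0.05. The median log2 fold change of all tested genes was 0.01. How many genes were called depended on which libraries were in the fit. Without untransduced library 2 the fit called 41 genes (0.279% of 14703 tested), 15 higher and 26 lower, and without untransduced library 1 it called 2447. Leaving out guideless dCas9-KRAB library 1, 2 or 3 gave 27, 215 or 238 calls, and leaving out untransduced library 3 gave 207. A fit with only the 6 libraries compared called 0 genes by edgeR, with 3056 at an unadjusted p under 0.05 and a smallest adjusted p of 0.0647. DESeq2 on all 18 libraries called 2008.

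**Figure D1:**
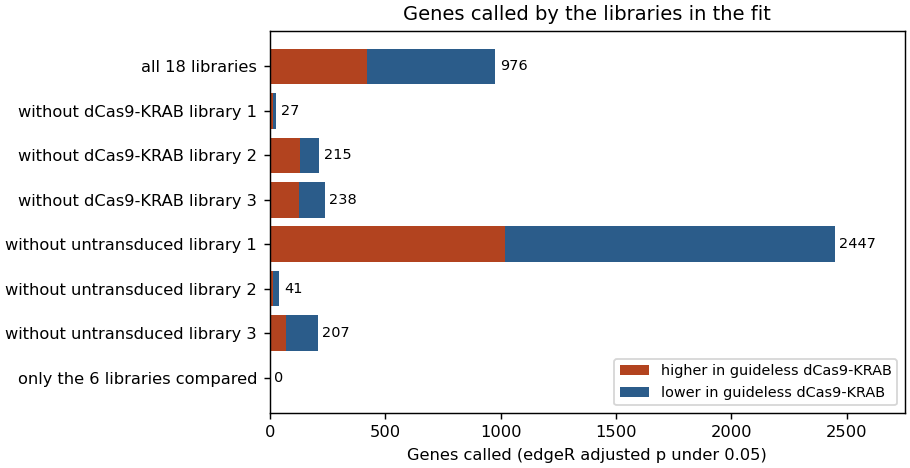
Number of genes called (x axis, edgeR adjusted p under 0.05) in the fit with all 18 libraries, in the fits without 1 of the 6 libraries and in the fit of the 6 libraries alone. The red share of each bar was higher and the blue share lower in guideless dCas9-KRAB; counts range between 0 and 2447.

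A set of 20 genes (0.136%) was called with all 18 libraries and again in each of the 6 fits without 1 library, 9 higher (0.0612%) and 11 lower (0.0748%). This criterion was set after the counts above had been seen, so the 20 genes are given as a description of which calls rest on no single library. All 20 had groups that did not overlap, where 26.5% of all tested genes had. The calls rest on the same values, so this adds no support. The 11 lower genes had log2 fold changes between -1.94 (ID3) and -0.75 (RPS6KC1), and the 9 higher genes between 0.75 (SF3A2) and 3.85 (PCSK1N, a gene of very low counts). NPW, also of low counts, followed at 2.65, and the other higher genes reached at most 1.48 (JUND). In the plot of fold change against level the 20 genes lie at levels from under 1 to over 100 CPM among the other called genes.

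**Figure D2:**
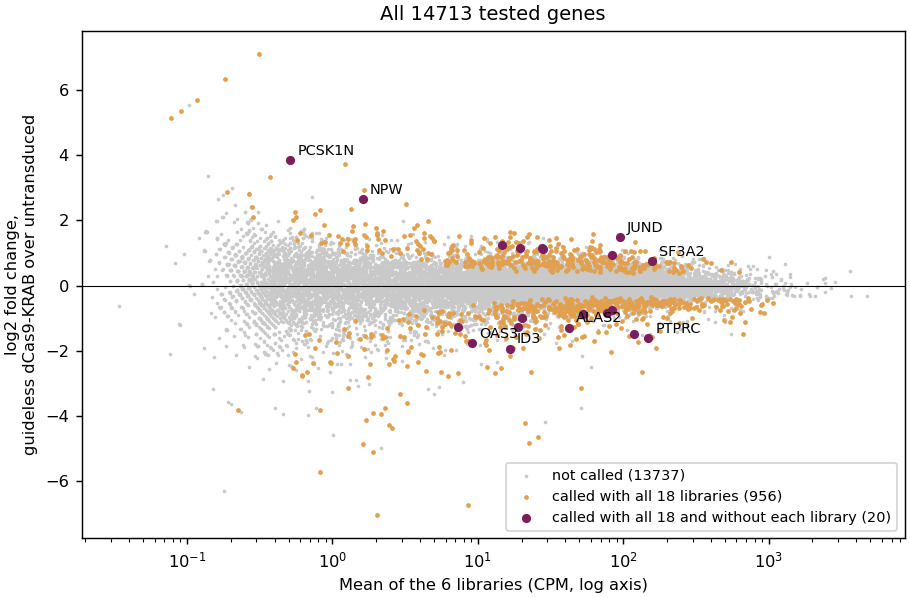
Log2 fold change of guideless dCas9-KRAB over untransduced cells (y axis) against the mean of the 6 libraries (x axis, CPM, log scale) for the 14713 tested genes. Grey points were not called, orange points were called with all 18 libraries, and the 20 purple points were also called without each library; some of these are named.

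Among the genes of haem synthesis, 4 of 12 tested were lower in guideless dCas9-KRAB and 0 were higher, against 3.76% and 2.88% of all tested genes, and the list's median log2 fold change was -0.31 (0.01 over all genes). ALAS2, the erythroid enzyme of the first and rate-limiting step, had 24.9, 26.9 and 21.7 CPM in guideless dCas9-KRAB, against 59.8, 60.9 and 60.05 CPM in untransduced libraries. Every guideless dCas9-KRAB library lay below every untransduced one, and the untransduced libraries had an SD of 0.615 CPM. ALAS2 had the smallest p of all genes (log2 fold change -1.30 ± 0.15, SE, adjusted p = 0.00143, 2.46-fold lower), and the adjusted p was 5.88e-04 to 0.0157 over the fits without 1 library. PPOX, the penultimate enzyme of the pathway, had 18.2, 17.2 and 22.7 CPM in guideless dCas9-KRAB, against 35, 41.9 and 35.4 CPM in untransduced libraries, with no overlap (log2 fold change -0.95 ± 0.20, SE, adjusted p = 0.0186). UROD, the enzyme that decarboxylates uroporphyrinogen, had 362, 373 and 428 CPM in guideless dCas9-KRAB, against 545, 494 and 521 CPM in untransduced libraries (log2 fold change -0.42 ± 0.12, SE, adjusted p = 0.0407). The groups of UROD did not overlap either. Without untransduced library 2, 2 of the 12 were called (0.279% of all tested genes were), and the median was -0.28. PPOX was called in 3 of the 6 fits without 1 library and UROD in 1 of them (largest adjusted p 0.0869 and 0.141). FECH, which inserts the iron, had 169.8, 189 and 125 CPM in guideless dCas9-KRAB, against 219, 201 and 215 CPM in untransduced libraries, and did not pass (adjusted p = 0.134). ALAS1, the housekeeping form of the first enzyme, had 45.7, 50.9 and 45.2 CPM in guideless dCas9-KRAB, against 52.7, 53.9 and 54.8 CPM in untransduced libraries (adjusted p = 0.354).

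Of 19 red cell membrane and blood group genes tested, 7 were lower in guideless dCas9-KRAB (3.76% of all tested genes were) and 0 higher (2.88% of all), with a median log2 fold change of -0.28. RHD, which carries the Rh D antigen, had 12.2, 13.9 and 14.4 CPM in guideless dCas9-KRAB, against 29.4, 23.3 and 27.9 CPM in untransduced libraries (log2 fold change -0.99 ± 0.15, SE, adjusted p = 0.00495). RHCE, which carries the Rh C and E antigens, had 10.5, 10.6 and 12.1 CPM in guideless dCas9-KRAB, against 23.3, 29.5 and 27.9 CPM in untransduced libraries (log2 fold change -1.28 ± 0.16, SE, adjusted p = 0.00153). Both were called without each library, at an adjusted p of 0.00320 to 0.0401 for RHD and 5.88e-04 to 0.0194 for RHCE. RHD and RHCE are near-identical neighbours, and how reads matching both were counted is not stated, so their split is uncertain. Their sum was 22.8, 24.5 and 26.5 CPM in guideless dCas9-KRAB, against 52.7, 52.7 and 55.8 CPM in untransduced libraries, a ratio of 0.457, and showed the same separation as each gene alone. RHAG, the glycoprotein that carries Rh proteins to the surface, had 474, 521 and 443 CPM in guideless dCas9-KRAB, against 721, 649 and 691 CPM in untransduced libraries (log2 fold change -0.52 ± 0.11, SE, adjusted p = 0.0185). XK, a membrane protein that carries the Kx antigen, had 85.2, 102 and 90.2 CPM in guideless dCas9-KRAB, against 138, 244 and 165 CPM in untransduced libraries, where library 2 was the highest (log2 fold change -0.98 ± 0.16, SE, adjusted p = 0.00893). XK was called in 5 of the 6 fits without 1 library and RHAG in 2 of them, with largest adjusted p of 0.0539 and 0.0757. EPB42, GYPC and GYPE, a cytoskeletal linker and a pair of glycophorins, were also lower, with log2 fold changes of -0.84, -0.61 and -0.64 at adjusted p = 0.0193, 0.0309 and 0.0261. Each of them missed the threshold in 4 or 5 of the 6 fits, and GYPE shares sequence with its near copies in the glycophorin family. The remaining 12 did not pass. Among them SPTB, a spectrin, and ANK1, an ankyrin, had log2 fold changes of 0.14 and 0.15. Without untransduced library 2, 3 of the 19 were called (0.279% of all tested genes were) and the median was -0.30. Fewer cells expressing a gene and less RNA of it per cell cannot be told apart in such bulk libraries.

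**Figure D3:**
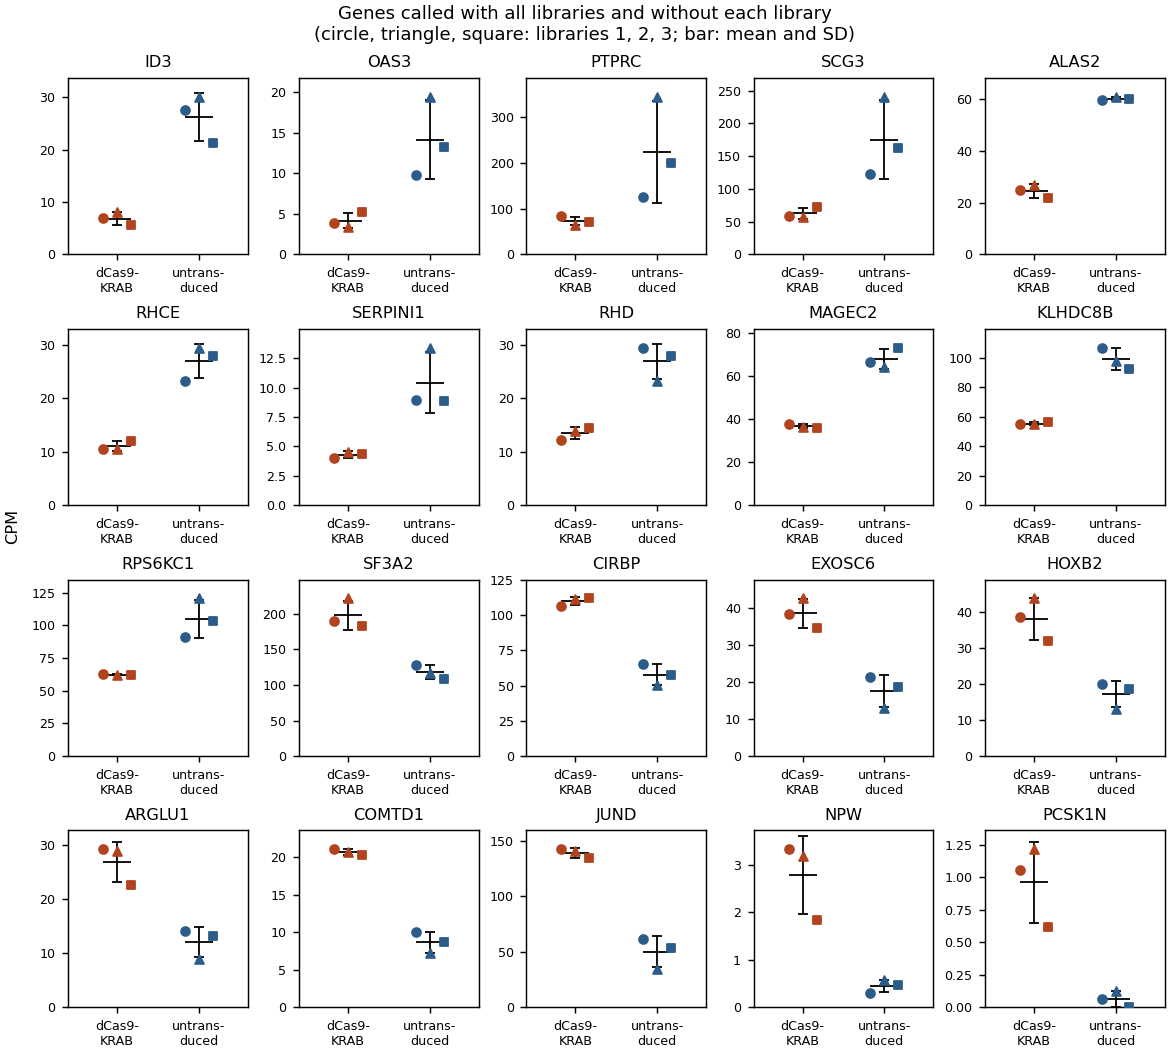
CPM (y axis, from 0, one scale per gene) of the 20 genes called with all libraries and without each library, in guideless dCas9-KRAB (left, red) and untransduced libraries (right, blue). Circle, triangle and square are libraries 1, 2 and 3, and bars give the mean and SD; the groups do not overlap in any panel.

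The promoters of ALAS2, RHD and RHAG are shown because these genes were lower and each holds a motif of GATA1, the erythroid factor whose own level is given after them. RHCE, PPOX and UROD were lower too but held no match in the 250 bases before their own starts, so the display was picked for the motif. The RHCE stretch ends in letters that the RHD stretch holds ahead of its match. Its lack of a match therefore does not set RHCE apart from RHD. Each line gives the 250 bases before the RefSeq gene start in GRCh38.p14 on the gene's strand, and capitals mark the GATA match (GATA after A or T and before A or G, on either strand).
ALAS2 (chrX:55030978-55031227, minus strand): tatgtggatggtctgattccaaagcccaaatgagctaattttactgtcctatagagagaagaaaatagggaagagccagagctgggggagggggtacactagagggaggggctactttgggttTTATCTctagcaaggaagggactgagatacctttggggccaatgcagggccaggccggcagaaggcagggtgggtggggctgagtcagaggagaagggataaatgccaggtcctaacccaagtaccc
RHD (chr1:25272236-25272485, plus strand): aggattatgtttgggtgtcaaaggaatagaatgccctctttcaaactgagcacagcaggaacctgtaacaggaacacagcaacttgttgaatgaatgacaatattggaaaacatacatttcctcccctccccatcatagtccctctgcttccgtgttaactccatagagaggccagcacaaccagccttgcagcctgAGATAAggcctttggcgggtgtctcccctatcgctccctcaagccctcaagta
RHAG (chr6:49636840-49637089, minus strand): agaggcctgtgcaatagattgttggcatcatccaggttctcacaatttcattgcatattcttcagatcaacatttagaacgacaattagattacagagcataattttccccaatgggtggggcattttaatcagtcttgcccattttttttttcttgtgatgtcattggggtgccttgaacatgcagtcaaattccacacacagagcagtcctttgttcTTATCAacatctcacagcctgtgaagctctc
The matches begin -127, -53 and -31 bases from the start, the last printed base being -1. Any of these letters occurred in 22.9% of 27305 promoters of the same length. They occurred in 10 of the 14 tested red cell membrane genes with a promoter entry, 5 of the 6 called among them, and in 2 of 10 haem genes, 1 of the 3 called (ALAS2). These matches are a description of letters and were not tied to binding in these cells.

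GATA1 itself had 190.5, 193 and 226 CPM in guideless dCas9-KRAB, against 292, 260.1 and 285 CPM in untransduced libraries (log2 fold change -0.46 ± 0.11, SE, adjusted p = 0.0287). Every guideless dCas9-KRAB library was below every untransduced one, but the call was lost in 4 of the 6 fits without 1 library, with an adjusted p of 0.0664 without untransduced library 2. It was the 1 of 12 erythroid transcription factors tested that passed, where 6.63% of all tested genes passed in either direction. Of 13 genes of iron uptake and storage, NCOA4, the receptor that delivers ferritin to autophagy, was the 1 that passed. NCOA4 had 379, 414 and 365 CPM in guideless dCas9-KRAB, against 534, 803 and 656 CPM in untransduced libraries (log2 fold change -0.78 ± 0.14, SE, adjusted p = 0.0118), and 0.0542 was its adjusted p without untransduced library 2.

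Of the 6 tested genes of the beta-globin cluster 0 passed in either direction by edgeR (6.63% of all tested genes did). Without adjustment 1 (HBE1) was under 0.05, as were 26.3% of all tested genes. By DESeq2 1 of the 6 passed, beside 2008 of all 14713 tested genes. HBE1, the embryonic beta-like globin, had 437, 468 and 467 CPM in guideless dCas9-KRAB, against 670.4, 546 and 595 CPM in untransduced libraries, with no overlap and an adjusted p of 0.0694 (log2 fold change -0.40 ± 0.13, SE). The fetal genes HBG1 and HBG2, near-identical copies, summed to 1719, 1829 and 1725 CPM in guideless dCas9-KRAB, against 1935, 1242 and 1679.5 CPM in untransduced libraries, a ratio of 1.09. The guideless dCas9-KRAB libraries lay inside the untransduced range. HBB, the adult gene, was near the detection limit at 8, 10 and 8 counts in guideless dCas9-KRAB and 40, 14 and 22 counts in untransduced libraries. HBD and HBBP1 had 13.1, 17.7 and 10.3 CPM and 22.9, 23.9 and 22.9 CPM in guideless dCas9-KRAB, against 18.4, 2.98 and 13.9 CPM and 42.4, 5.77 and 30.8 CPM in untransduced libraries, where library 2 was the lowest for both. In the alpha-globin cluster the copies HBA1 and HBA2 summed to 684, 884 and 660.3 CPM in guideless dCas9-KRAB, against 808, 421 and 698 CPM in untransduced libraries, and the signs of HBA1, HBA2, HBD, HBG1 and HBG2 turned without untransduced library 2. HBZ, the embryonic alpha-like globin, had 231, 309 and 168 CPM in guideless dCas9-KRAB, against 207, 85.7 and 209.7 CPM in untransduced libraries (adjusted p = 0.323). HBQ1, a theta-globin of unclear function, was the 1 of 4 tested alpha-cluster genes that passed, with 9.0, 11.9 and 12.3 CPM in guideless dCas9-KRAB, against 6.37, 6.57 and 5.81 CPM in untransduced libraries (log2 fold change 0.82 ± 0.21, SE, adjusted p = 0.0309, 0.113 without untransduced library 2). Of 11 megakaryocyte genes tested 2 were lower and 0 higher, beside 3.76% and 2.88% of all tested genes, and 3 had a positive log2 fold change. The list summed to 561, 549 and 451 CPM in guideless dCas9-KRAB, against 523, 382 and 426 CPM in untransduced libraries, without the fall of the shorter marker set above. TUBB1, the platelet beta-tubulin, had 12.1, 12 and 9.83 CPM in guideless dCas9-KRAB, against 40.7, 14.3 and 39.6 CPM in untransduced libraries (log2 fold change -1.48 ± 0.28, SE, adjusted p = 0.0132). ITGB3, the platelet integrin subunit, had 3.08, 2.28 and 2.46 CPM in guideless dCas9-KRAB, against 6.01, 4.28 and 4.56 CPM in untransduced libraries (log2 fold change -0.92 ± 0.26, SE, adjusted p = 0.0417). For TUBB1 untransduced library 2 lay close to the guideless libraries, and the log2 fold change without it was -1.84 at an adjusted p of 1.02e-04. ITGB3 was called in 0 of the 6 fits without 1 library.

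Of 22 interferon-stimulated genes tested, 0 passed as higher in guideless dCas9-KRAB and 3 as lower, beside 2.88% and 3.76% of all tested genes. The list's median log2 fold change was -0.32 (-0.18 without untransduced library 2). OAS3, an oligoadenylate synthetase that activates RNase L, had 3.89, 3.42 and 5.22 CPM in guideless dCas9-KRAB, against 9.83, 19.5 and 13.3 CPM in untransduced libraries (log2 fold change -1.76 ± 0.26, SE, adjusted p = 0.00495). It was called without each library, at an adjusted p of 8.56e-04 to 0.0401. IFIH1, a cytosolic sensor of double-stranded RNA, had 1.38, 1.52 and 0.998 CPM in guideless dCas9-KRAB, against 3.4, 7.81 and 4.62 CPM in untransduced libraries (log2 fold change -2.02 ± 0.36, SE, adjusted p = 0.0113). USP18, which removes ISG15 from proteins and damps interferon signalling, had 0.811, 1.6 and 1.46 CPM in guideless dCas9-KRAB, against 3.52, 8.18 and 4.36 CPM in untransduced libraries (log2 fold change -2.05 ± 0.41, SE, adjusted p = 0.0141). In all 3 genes untransduced library 2 was the highest and the groups did not overlap, and IFIH1 and USP18 were each called in 4 of the 6 fits without 1 library, with adjusted p of 0.0546 and 0.0818 without untransduced library 2. Members that did not pass included ISG15 (8.03, 8.21 and 9.68 CPM in guideless dCas9-KRAB, against 10.4, 7.25 and 7.93 CPM in untransduced libraries) and IFITM1 (198, 168 and 321 CPM in guideless dCas9-KRAB, against 253, 173 and 209.7 CPM in untransduced libraries). Their 95% intervals of the log2 fold change ran from -0.46 to 0.50 for ISG15 and from -0.51 to 0.74 for IFITM1. BST2, a restriction factor that tethers virions, had 79.5, 69.8 and 98 CPM in guideless dCas9-KRAB, against 77.6, 45.4 and 58.3 CPM in untransduced libraries (adjusted p = 0.154). IRF9, which relays the interferon signal, had a log2 fold change of -0.49 and did not pass. IFIT1 and IFIT2 had at most 22 counts in any of the 6 libraries, and 4 of the 31 listed genes had none in all 6. Of 22 tested genes of nucleic acid sensing and retroviral restriction 0 passed in either direction, with a median of -0.08, and of 15 NF-kappaB and inflammatory genes 0 passed. Among all tested genes 6.63% passed in either direction, so a count of 0 in lists this short says little.

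The promoters of IFIH1 and OAS3 are given because both genes fell and interferon-stimulated genes are recognised through a short element. Capitals mark the core of the interferon-stimulated response element (GAAA, any 2 bases, and GAAA again), on either strand.
IFIH1 (chr2:162318685-162318934, minus strand): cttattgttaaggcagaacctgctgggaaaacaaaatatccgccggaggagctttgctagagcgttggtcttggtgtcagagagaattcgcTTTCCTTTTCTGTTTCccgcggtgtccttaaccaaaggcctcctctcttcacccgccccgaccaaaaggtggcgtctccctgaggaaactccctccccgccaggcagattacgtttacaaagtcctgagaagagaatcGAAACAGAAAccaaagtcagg
OAS3 (chr12:112938224-112938473, plus strand): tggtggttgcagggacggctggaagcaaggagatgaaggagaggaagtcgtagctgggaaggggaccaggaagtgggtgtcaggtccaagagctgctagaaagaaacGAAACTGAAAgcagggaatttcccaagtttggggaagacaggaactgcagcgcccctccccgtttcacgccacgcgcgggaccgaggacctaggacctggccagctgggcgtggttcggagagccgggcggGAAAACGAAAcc
IFIH1 held 3 matches, the first pair overlapping, and OAS3 held 2. The element occurred in 3.07% of the 27305 promoters and in 11 of the 17 tested interferon genes with a promoter entry, both called ones among them. It was thus also present in genes of the list that did not pass, ISG15, IFIT1 and IFITM1 among them.

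The BCR-ABL and STAT5 list held 6 lower and 0 higher of 20 tested genes, where all tested genes had 3.76% lower and 2.88% higher. Its median was -0.12. ID3, ID2 and SMAD7 are among the 6 lower genes, so the count does not describe BCR-ABL and STAT5 signalling alone. ID3 and ID2 are helix-loop-helix inhibitors of DNA binding and well-known targets of BMP signalling. ID3 had 6.89, 8.06 and 5.61 CPM in guideless dCas9-KRAB, against 27.5, 30.1 and 21.2 CPM in untransduced libraries (log2 fold change -1.94 ± 0.27, SE, adjusted p = 0.00407). It was called without each library, at an adjusted p of 0.00241 to 0.0401. ID2 had 2.92, 4.03 and 3.84 CPM in guideless dCas9-KRAB, against 7.95, 8.43 and 8.32 CPM in untransduced libraries (log2 fold change -1.19 ± 0.24, SE, adjusted p = 0.0164), with an SD of 0.253 CPM among the untransduced libraries, and was called in 4 of the 6 fits. SMAD7, an inhibitory SMAD induced by the same pathway, had 0.730, 0.912 and 0.384 CPM in guideless dCas9-KRAB, against 1.03, 4.4 and 2.38 CPM in untransduced libraries (log2 fold change -1.94 ± 0.47, SE, adjusted p = 0.0285). ID1, the third member of the family on the list, had 89.9, 84.4 and 75.4 CPM in guideless dCas9-KRAB, against 79.7, 20.6 and 61.7 CPM in untransduced libraries and did not pass (adjusted p = 0.241). CISH, a STAT5 target that restrains cytokine receptors, had 109, 91.6 and 91.9 CPM in guideless dCas9-KRAB, against 142, 189.9 and 133 CPM in untransduced libraries (log2 fold change -0.67 ± 0.14, SE, adjusted p = 0.0193). SOCS2, another suppressor of cytokine signalling, had 158, 168 and 126 CPM in guideless dCas9-KRAB, against 151, 429.8 and 231 CPM in untransduced libraries (log2 fold change -0.85 ± 0.25, SE, adjusted p = 0.0486), and its groups overlapped. GAB2, an adaptor bound by BCR-ABL, had 77.9, 65.4 and 87.2 CPM in guideless dCas9-KRAB, against 94.2, 399.6 and 173 CPM in untransduced libraries (log2 fold change -1.53 ± 0.39, SE, adjusted p = 0.0318). For SMAD7, SOCS2 and GAB2 untransduced library 2 was far above the other untransduced libraries, and the adjusted p without it was 0.179, 0.323 and 0.234. CISH reached 0.0986, and ID3 was the 1 gene of the list still called, where 0.279% of all tested genes were. BCR and ABL1, whose sequence makes up the fusion, had log2 fold changes of 0.32 and 0.30, and neither passed.

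The remaining lower genes of the 20 share no list. PTPRC, the leukocyte phosphatase CD45, had 82.9, 64.6 and 71.7 CPM in guideless dCas9-KRAB, against 125, 344 and 200.4 CPM in untransduced libraries (log2 fold change -1.61 ± 0.27, SE, adjusted p = 0.00891), with untransduced libraries spread over a wide range above the guideless ones. SCG3, a granin of secretory granules, had 59, 57.2 and 72.3 CPM in guideless dCas9-KRAB, against 123, 241 and 162 CPM in untransduced libraries (log2 fold change -1.48 ± 0.22, SE, adjusted p = 0.00495). SERPINI1, a secreted inhibitor of serine proteases, had 3.97, 4.56 and 4.38 CPM in guideless dCas9-KRAB, against 8.98, 13.4 and 8.85 CPM in untransduced libraries (log2 fold change -1.27 ± 0.20, SE, adjusted p = 0.00624). Untransduced library 2 was the highest of the 6 for these 3 genes. Without it their log2 fold changes were -1.16, -1.19 and -1.06. MAGEC2, a cancer-testis antigen, had 37.9, 36.6 and 36.2 CPM in guideless dCas9-KRAB, against 66.6, 64.5 and 73.4 CPM in untransduced libraries (log2 fold change -0.89 ± 0.14, SE, adjusted p = 0.00680). KLHDC8B, a kelch-repeat protein, had 54.8, 54.8 and 56.2 CPM in guideless dCas9-KRAB, against 107, 97.5 and 92.2 CPM in untransduced libraries (log2 fold change -0.84 ± 0.12, SE, adjusted p = 0.00495). RPS6KC1, a kinase-domain protein of endosomes, had 62.5, 62.4 and 61.8 CPM in guideless dCas9-KRAB, against 91.1, 121 and 103 CPM in untransduced libraries (log2 fold change -0.75 ± 0.12, SE, adjusted p = 0.00680). These 3 genes had an SD under 1 CPM among the guideless dCas9-KRAB libraries, and their log2 fold changes without untransduced library 2 were -0.93, -0.86 and -0.65.

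The 9 higher genes of the 20 came from no common list. JUND, an AP-1 transcription factor, had 143, 141 and 134 CPM in guideless dCas9-KRAB, against 61.9, 34.4 and 53.5 CPM in untransduced libraries (log2 fold change 1.48 ± 0.18, SE, adjusted p = 0.00153, 2.79-fold). The guideless libraries had an SD of 4.27 CPM, and untransduced library 2 was the lowest of the 6. Without it the log2 fold change was 1.26 at an adjusted p of 0.00266. CIRBP, the cold-inducible RNA-binding protein, had 107, 112 and 112 CPM in guideless dCas9-KRAB, against 65.5, 50.3 and 57.7 CPM in untransduced libraries (log2 fold change 0.93 ± 0.13, SE, adjusted p = 0.00407). ARGLU1, a modulator of splicing, had 29.1, 28.8 and 22.5 CPM in guideless dCas9-KRAB, against 14, 8.93 and 13 CPM in untransduced libraries (log2 fold change 1.16 ± 0.18, SE, adjusted p = 0.00561). SF3A2, a subunit of a splicing complex, had 189, 222 and 183 CPM in guideless dCas9-KRAB, against 128, 117 and 108 CPM in untransduced libraries (log2 fold change 0.75 ± 0.12, SE, adjusted p = 0.00710). All 3 were higher in each guideless library than in any untransduced one. EXOSC6, a subunit of the RNA exosome, had 38.4, 42.6 and 34.6 CPM in guideless dCas9-KRAB, against 21.5, 12.9 and 18.6 CPM in untransduced libraries (log2 fold change 1.13 ± 0.18, SE, adjusted p = 0.00680). HOXB2, a homeobox factor, had 38.6, 43.7 and 32 CPM in guideless dCas9-KRAB, against 19.9, 13.1 and 18.5 CPM in untransduced libraries (log2 fold change 1.15 ± 0.18, SE, adjusted p = 0.00680). COMTD1, a predicted methyltransferase, had 21.1, 20.8 and 20.4 CPM in guideless dCas9-KRAB, against 10.1, 7.25 and 8.65 CPM in untransduced libraries (log2 fold change 1.26 ± 0.16, SE, adjusted p = 0.00153). COMTD1 varied little in the guideless group, with an SD of 0.366 CPM. Untransduced library 2 was also the lowest of the 6 for CIRBP, ARGLU1, EXOSC6, HOXB2 and COMTD1, though not for SF3A2, NPW or PCSK1N. Without it the log2 fold changes of CIRBP, ARGLU1, EXOSC6, HOXB2 and COMTD1 were 0.83, 0.98, 0.94, 0.98 and 1.14. NPW, the precursor of neuropeptide W, had 3.33, 3.19 and 1.84 CPM in guideless dCas9-KRAB, against 0.303, 0.558 and 0.462 CPM in untransduced libraries (log2 fold change 2.65 ± 0.35, SE, adjusted p = 0.00197). PCSK1N, an inhibitor of a prohormone convertase, had 26, 32 and 16 counts in guideless dCas9-KRAB, against 2, 4 and 0 counts in untransduced libraries. Its mean of 0.512 CPM lay under the 1 CPM minimum of the naming rule, and its fitted log2 fold change of 3.85 depends on how counts near 0 are treated. Of 24 immediate early and AP-1 genes tested JUND was the 1 higher and FOS, its partner, the 1 lower, where all tested genes had 2.88% higher and 3.76% lower. FOS had 3.24, 3.5 and 5.61 CPM in guideless dCas9-KRAB, against 7.89, 19 and 9.31 CPM in untransduced libraries (log2 fold change -1.55 ± 0.36, SE, adjusted p = 0.0250, 0.152 without untransduced library 2).

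Base composition differed between the sets that moved. The median GC content of transcripts was 59.2% in the 423 higher genes, 47.3% in the 553 lower genes and 49.9% in all tested genes, over the 94.7% of tested genes with a value. It was 63.2% in the 9 higher and 52.1% in the 11 lower genes called without each library. The slope of a library's log2 level on GC was -0.164 per 10% in untransduced library 2, the steepest negative slope of the 18, and 0.07, 0.01 and 0.10 in guideless dCas9-KRAB libraries 1, 2 and 3. With offsets for GC content per library, a setting added after these values were seen, 963 genes were called, of which 741 were among the 976 (284 higher and 457 lower). Of 400 higher genes with at least 1 CPM untransduced library 2 was the lowest untransduced library for 78.3% (42.5% of all 12587 genes), and of 537 lower genes it was the highest for 90.7% (44.4% of all). Untransduced library 1 was the highest untransduced library for 80.3% of those higher genes (42.6% of all) and the lowest for 84% of those lower genes (36.2% of all), so libraries 1 and 2 lay at opposite ends in both sets. Relative to the guideless dCas9-KRAB mean, the median log2 level of the higher genes was -0.57, -1.03 and -0.77 in untransduced libraries 1, 2 and 3, and that of the lower genes was 0.40, 1.06 and 0.63. The genes were chosen for differing between the groups, which fixes the sign of these medians. The calls were made with these same libraries in the fit, so the shares by library are not independent of that choice. What goes with the distance between untransduced libraries 1 and 2 was not tested.

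By the naming rule the 12 largest falls were those of TSC22D3, G0S2, UNC5B, S100P, ASS1, FERMT2, ADGRA2, TCP11L2, RASGRP3, DEPP1, SH3BGR and HECW2, and in every one untransduced library 2 was the highest of the 6 libraries and library 1 the lowest untransduced one. TSC22D3, a glucocorticoid-induced leucine zipper protein, had 2, 0 and 0 counts in guideless dCas9-KRAB, against 28, 264 and 90 counts in untransduced libraries. G0S2, an inhibitor of triglyceride lipolysis, had 0.162, 0.228 and 0.0768 CPM in guideless dCas9-KRAB, against 0.607, 38.4 and 12.2 CPM in untransduced libraries (log2 fold change -6.73 ± 1.62, SE, adjusted p = 0.0265). UNC5B, a netrin receptor, had 2.03, 1.37 and 2.53 CPM in guideless dCas9-KRAB, against 3.09, 112 and 34 CPM in untransduced libraries (log2 fold change -4.65 ± 0.94, SE, adjusted p = 0.0153). ASS1, the enzyme that joins citrulline and aspartate in arginine synthesis, had 1.87, 1.44 and 3.23 CPM in guideless dCas9-KRAB, against 3.34, 88.8 and 28.7 CPM in untransduced libraries (log2 fold change -4.20 ± 0.92, SE, adjusted p = 0.0204). HECW2, a ubiquitin ligase, had 6.97, 5.7 and 6.37 CPM in guideless dCas9-KRAB, against 7.28, 82 and 30.8 CPM in untransduced libraries (log2 fold change -2.66 ± 0.54, SE, adjusted p = 0.0152). For ASS1 and HECW2 untransduced library 1 was just above the highest guideless library, while for TSC22D3 and G0S2 it was several times above it. Without untransduced library 2 the log2 fold changes were -5.33 for G0S2, -3.24 for UNC5B, -2.89 for ASS1 and -1.60 for HECW2, at adjusted p of 0.132, 0.0869, 0.116 and 0.0899. None of the 12 was called in all 6 fits without 1 library.

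Of 25 tested genes of the integrated stress and amino acid response, 2 passed as lower and 0 as higher, against 3.76% and 2.88% of all tested genes. The list summed to 3393, 3507 and 3948 CPM in guideless dCas9-KRAB, against 3503, 10252 and 5241 CPM in untransduced libraries, where library 1 lay within the guideless range. The median log2 fold change was -1.11 with all libraries and -0.35 without untransduced library 2. In that fit 0 of the 25 passed, beside 0.279% of all tested genes. PHGDH, the first enzyme of serine synthesis, had 30.2, 30.1 and 50.8 CPM in guideless dCas9-KRAB, against 52.7, 464 and 175 CPM in untransduced libraries (log2 fold change -2.64 ± 0.65, SE, adjusted p = 0.0297, 0.203 without untransduced library 2). ATF5, a transcription factor of the response, had 77.4, 99.4 and 59.2 CPM in guideless dCas9-KRAB, against 66.4, 460.3 and 178 CPM in untransduced libraries (log2 fold change -1.58 ± 0.43, SE, adjusted p = 0.0380, 0.329 without untransduced library 2), and its groups overlapped. ASNS, asparagine synthetase, had 277, 290.1 and 303 CPM in guideless dCas9-KRAB, against 299, 1516 and 624 CPM in untransduced libraries and did not pass (adjusted p = 0.0547). DDIT3, the stress factor CHOP, had 18.2, 15.9 and 24.6 CPM in guideless dCas9-KRAB, against 13.9, 87.4 and 28.8 CPM in untransduced libraries (adjusted p = 0.252). For both, untransduced library 1 was within or near the guideless range and library 2 was several times higher. Of 18 endoplasmic reticulum chaperones 3 were lower. HSPA5, the chaperone BiP, had 646, 658 and 589 CPM in guideless dCas9-KRAB, against 693, 1642 and 989 CPM in untransduced libraries (log2 fold change -0.81 ± 0.21, SE, adjusted p = 0.0309). HYOU1, a large chaperone of the same compartment, had 454, 436 and 386 CPM in guideless dCas9-KRAB, against 503, 1017 and 641 CPM in untransduced libraries (log2 fold change -0.76 ± 0.19, SE, adjusted p = 0.0304). SEL1L, of the degradation machinery there, had 44.1, 41.3 and 38.1 CPM in guideless dCas9-KRAB, against 44.6, 199 and 91 CPM in untransduced libraries (log2 fold change -1.44 ± 0.33, SE, adjusted p = 0.0248). None of these 3 was called without untransduced library 2, with adjusted p of 0.177, 0.169 and 0.147.

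**Figure D4:**
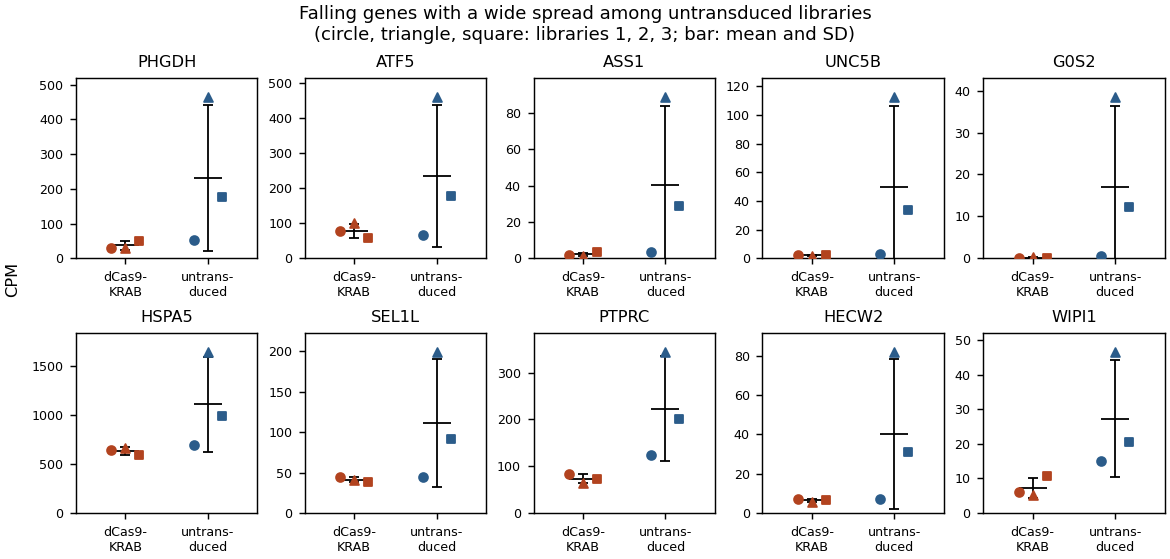
CPM (y axis, from 0, one scale per gene) of 10 genes lower in guideless dCas9-KRAB (left, red) than in untransduced libraries (right, blue), chosen to show the spread of the untransduced group. Circle, triangle and square are libraries 1, 2 and 3, bars give the mean and SD (cut at 0); in every panel untransduced library 2 is the highest, and in most library 1 lies near the guideless libraries on the scale of the panel.

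The largest rises were of genes with low levels. By the same rule they were CCDC78, EME2, NPW, FJX1, NPB, AMH, ARHGAP27P1, VGF, a transcript listed only under its RefSeq accession, ACTL8, CPLX1 and MS4A4A. CCDC78, a coiled-coil protein, had 54, 22 and 98 counts in guideless dCas9-KRAB, against 8, 0 and 8 counts in untransduced libraries. EME2, a subunit of a DNA endonuclease, had 4.14, 2.81 and 1.77 CPM in guideless dCas9-KRAB, against 0.546, 0.248 and 0.330 CPM in untransduced libraries (log2 fold change 2.93 ± 0.72, SE, adjusted p = 0.0282). AMH, the anti-Müllerian hormone, had 8.35, 8.13 and 5.22 CPM in guideless dCas9-KRAB, against 1.09, 2.11 and 2.31 CPM in untransduced libraries (log2 fold change 1.98 ± 0.35, SE, adjusted p = 0.0113). AMH directly follows SF3A2 on the same strand of chromosome 19 in the RefSeq annotation, so reads running past SF3A2 cannot be told apart from AMH. VGF, a precursor of secreted peptides, had 6.65, 6.16 and 5.22 CPM in guideless dCas9-KRAB, against 2.49, 0.806 and 1.72 CPM in untransduced libraries (log2 fold change 1.84 ± 0.36, SE, adjusted p = 0.0137). CPLX1, a complexin of vesicle fusion, had 6.73, 6.16 and 3.92 CPM in guideless dCas9-KRAB, against 1.82, 1.3 and 1.85 CPM in untransduced libraries (log2 fold change 1.75 ± 0.32, SE, adjusted p = 0.0118). Groups without overlap were part of the rule that chose these genes, and CCDC78, EME2, VGF and CPLX1, though not AMH, were lowest in untransduced library 2. Of the 12, NPW was the 1 called without each library, and the largest adjusted p among those fits was 0.0753 for CCDC78, 0.147 for EME2, 0.0539 for AMH, 0.0629 for VGF and 0.0623 for CPLX1.

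Genes that could answer to the construct or to selection were examined last. ZNF10, the zinc finger gene whose KRAB domain is widely used in such fusions, had 6.24, 7.68 and 5.53 CPM in guideless dCas9-KRAB, against 8.07, 7.75 and 7.79 CPM in untransduced libraries, and did not pass (log2 fold change -0.28 ± 0.20, SE, 95% interval from -0.72 to 0.17, adjusted p = 0.407). Among 18 KRAB co-repressors and heterochromatin factors 1 passed as higher and 0 as lower, beside 2.88% and 3.76% of all tested genes. It was CBX3, a heterochromatin protein that binds methylated histone H3, with 244, 294 and 221 CPM in guideless dCas9-KRAB, against 178, 137 and 152 CPM in untransduced libraries (log2 fold change 0.70 ± 0.13, SE, adjusted p = 0.0132, 0.0701 without untransduced library 2). TRIM28, the partner of KRAB, had 974, 1038 and 913 CPM in guideless dCas9-KRAB, against 1099.8, 756 and 999 CPM in untransduced libraries, with a 95% interval from -0.30 to 0.37 on the log2 scale. SETDB1, the histone methyltransferase recruited with it, had 72.7, 64.8 and 56.7 CPM in guideless dCas9-KRAB, against 77.3, 87.3 and 77.3 CPM in untransduced libraries (adjusted p = 0.209). Of 6 efflux transporters 4 were lower and 0 higher, beside 3.76% lower and 2.88% higher of all tested genes. ABCB1, the P-glycoprotein that exports many drugs, had 36, 14 and 36 counts in guideless dCas9-KRAB, against 80, 136 and 94 counts in untransduced libraries (log2 fold change -1.53 ± 0.37, SE, adjusted p = 0.0262). ABCG2, another drug exporter, had 8, 14 and 16 counts in guideless dCas9-KRAB, against 28, 76 and 52 counts in untransduced libraries (log2 fold change -1.73 ± 0.42, SE, adjusted p = 0.0285). ABCC4, an exporter of nucleotides, had 119, 113 and 97.8 CPM in guideless dCas9-KRAB, against 138, 211 and 163 CPM in untransduced libraries (log2 fold change -0.63 ± 0.15, SE, adjusted p = 0.0250), and ABCB6, a porphyrin transporter, had 51.2, 53.1 and 57 CPM in guideless dCas9-KRAB, against 74.2, 65.3 and 65.7 CPM in untransduced libraries (log2 fold change -0.35 ± 0.10, SE, adjusted p = 0.0495). The groups of all 4 did not overlap, yet 0 of them were called without untransduced library 2 (adjusted p 0.134, 0.157, 0.131 and 0.110).

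The other lists are set beside 2.88% higher and 3.76% lower among all tested genes, and none was tested as a set. Of 19 p53 targets 1 was higher and 2 were lower. BAX, a pore-forming death factor, had 49.5, 53.1 and 54.7 CPM in guideless dCas9-KRAB, against 45.8, 22.2 and 33.2 CPM in untransduced libraries (log2 fold change 0.64 ± 0.19, SE, adjusted p = 0.0499), while CDKN1A, a cell cycle inhibitor, had 14.9, 11 and 16.5 CPM in guideless dCas9-KRAB, against 21.8, 34.2 and 24.4 CPM in untransduced libraries (log2 fold change -0.92 ± 0.23, SE, adjusted p = 0.0285). TP53INP1, a stress-induced nuclear protein, was the other lower one at -2.07 on the log2 scale, and 0 of the 3 passed without untransduced library 2. Of 19 genes of DNA damage and end joining 1 was lower and 0 were higher. Hypoxia and glycolysis genes held 2 lower of 31, the prolyl hydroxylases P4HA1 and P4HA2, and S phase genes 1 lower of 23, CDC45. Of 32 cytosolic ribosomal protein genes 1 was higher (RPS15), and 1 of 27 biogenesis and translation genes was lower (EIF2AK1, the haem-regulated kinase). Of these, RPS15 had a log2 fold change of 0.53 and EIF2AK1 of -0.43. Of 14 ubiquitin and autophagy genes 2 were lower, among them WIPI1, an autophagy protein, at -1.90. Apoptosis regulators held 1 higher (BAX) and 2 lower (BMF among them) of 17. In 10 lists of 5 or more tested genes 0 of 153 genes passed by edgeR. These were the sterol, G2 and M phase, heat shock, oxidative stress, histone, myeloid, vector entry, beta-globin, nucleic acid sensing and NF-kappaB lists. Of the 153 genes 30 had an unadjusted p under 0.05, where 26.3% of all tested genes had. DESeq2 called 14 of the 153, and 2008 of all 14713 tested genes. Of 5 epithelial and stromal markers PECAM1 was lower, at 11.2, 9.05 and 15.6 CPM in guideless dCas9-KRAB, against 22.6, 19.9 and 20.02 CPM in untransduced libraries. CD8A, a T cell co-receptor, was the 1 lymphoid gene of 5 that passed. It had 16, 10 and 22 counts in guideless dCas9-KRAB, against 0, 0 and 0 counts in untransduced libraries, where a count of 0 allows up to 3 fragments in a library. The other 4 lymphoid genes did not pass.

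**Figure D5:**
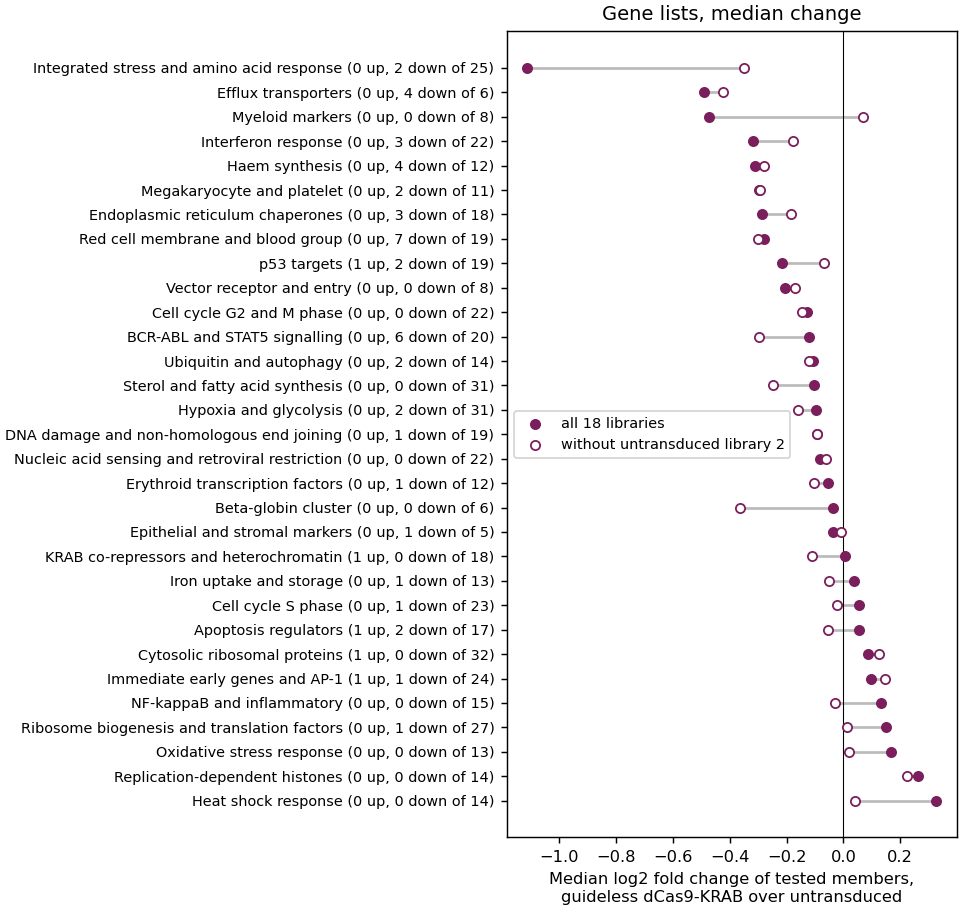
Median log2 fold change of guideless dCas9-KRAB over untransduced cells (x axis) for the lists with at least 5 tested genes, lymphoid markers left out, with the members called higher and lower beside each name. Filled points use all 18 libraries and open points leave out untransduced library 2; the stress and amino acid list moves between -1.11 and -0.35.

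To ask whether any difference belonged to the guideless repressor and not to lentiviral cells in general, guideless dCas9-KRAB was compared with the mean of dCas9_CR4 and dCas9_CR10, which carry dCas9 without KRAB and a gRNA. In that comparison 0 of 14713 genes passed by edgeR, 99 were under 0.05 without adjustment (0.673%), and 0 passed by DESeq2. So no gene of the untransduced comparison was shown to be particular to guideless dCas9-KRAB. ALAS2 averaged 24.5 ± 2.61 CPM in guideless dCas9-KRAB, 32.4 ± 2.49 CPM with dCas9_CR10 and 36.8 ± 4.05 CPM with dCas9_CR4 (SD, n = 3 each), against 60.3 ± 0.615 CPM in untransduced cells. The 12 other lentiviral libraries had 27.2 to 41.9 CPM, all above the guideless ones and all below the untransduced ones, and the difference of guideless dCas9-KRAB from the dCas9 mean was -0.49 ± 0.13 (log2 ± SE, unadjusted p = 0.00136). RHD averaged 13.5 ± 1.14 CPM in guideless dCas9-KRAB, 17.5 ± 2.52 CPM with dCas9_CR10 and 17.8 ± 2.04 CPM with dCas9_CR4, against 26.9 ± 3.21 CPM in untransduced cells, with a difference from the dCas9 mean of -0.38 ± 0.13 (unadjusted p = 0.00872). For both genes the adjusted p of that difference was 1.00. JUND averaged 139 ± 4.27 CPM in guideless dCas9-KRAB, 121 ± 18.8 CPM with dCas9_CR10 and 139 ± 9.15 CPM with dCas9_CR4, against 49.9 ± 14.1 CPM in untransduced cells. ID3 averaged 6.85 ± 1.23 CPM in guideless dCas9-KRAB, 6.11 ± 1.76 CPM with dCas9_CR10 and 8.0 ± 3.64 CPM with dCas9_CR4, against 26.3 ± 4.56 CPM in untransduced cells. OAS3 averaged 4.18 ± 0.934 CPM in guideless dCas9-KRAB, 4.29 ± 1.15 CPM with dCas9_CR10 and 3.95 ± 0.825 CPM with dCas9_CR4, against 14.2 ± 4.88 CPM in untransduced cells. The log2 differences of guideless dCas9-KRAB from the dCas9 mean were 0.10 ± 0.15 for JUND, -0.03 ± 0.24 for ID3 and 0.02 ± 0.23 for OAS3. All lentiviral groups share the virus and selection, so which of these goes with a difference cannot be told apart.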

How the data were processed

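K562 RNA was enriched for poly(A) on oligo-dT beads, copied to cDNA and tagged with Nextera transposase, which marks no strand, per the labels' protocols. The authors deposited raw counts, in files of 40709 RefSeq transcripts, 1 per library. The build hg19 and the tools Picard, DESeq, R 3.1.2, Bowtie2 and SAMtools come from the submitters' processing notes, which give no roles; the counting tool and the handling of multiply aligned reads are not given in the sources used here. Every deposited count was even (0 odd values), taken as 2 mates counted per fragment.

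Transcripts were summed to 24394 genes with the RefSeq table of GRCh38.p14 (39324 accessions) and GENCODE (517); 868 kept their accession. Coordinates and promoter sequences are those of RefSeq GRCh38.p14, used for names and letters only, since the counts were made on hg19. Counts of all 18 libraries (6 group means) were filtered with filterByExpr (14713 genes, 99.97% of counts), normalised by TMM and compared by quasi-likelihood in edgeR 4.0.16 under R 4.3.3, Benjamini-Hochberg adjusted over all tested genes, threshold 0.05. CPM are TMM-scaled. Standard errors come from the test statistic and 95% intervals use 12 residual degrees of freedom; both cover the spread of libraries, and the reads carry no molecular identifiers. The biological coefficient of variation was 21.6%. The code was tested on simulated data.

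Named genes were ZNF10 and the globins, the 12 largest rises and falls among passing genes of at least 1 CPM without overlap, up to 4 passing members per list with the smallest p, and the 2 most abundant members of lists with none; some genes the rule names are not reported here, exceptions are marked, and further list members are given for context. The comparison, the 34 lists and the rule were chosen with earlier results of these data known. Alternatives were DESeq2 1.42.0, DESeq2 size factors, other filters, halved counts, fewer libraries, replicate blocks and, added after the data were seen, GC offsets, limma 3.58.1 with library weights and calls common to all fits without 1 library. Whether library numbers pair the groups was checked by correlating deviations from group means.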

Additional observations from a re-analysis of the deposited data

How the results depend on the processing

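The number of genes called between guideless dCas9-KRAB and untransduced cells moved with the choice of libraries and test more than with scaling or filters. The 976 calls were 985 with DESeq2 size factors, 884 without a count filter, 1127 with a mean of at least 50 counts, 1092 with counts halved to fragments and 963 with GC offsets. They were 2008 with DESeq2, 1617 without the lentiviral libraries numbered 3, 6214 with limma library weights (3302 higher and 2912 lower), and 0 with only the 6 libraries compared. Leaving out 1 library gave 27 to 2447 calls, and 20 genes were called with and without each library. The cause of these differences was not tested. Library numbers did not pair the groups: over 12587 genes the deviations of same-numbered libraries from their group means correlated at 0.163, -0.279 and -0.356. With the replicate block the fit of all 18 libraries called 2621 genes and that of only the 2 groups 6. Against the mean of dCas9_CR4 and dCas9_CR10, 0 genes passed in every setting run, replicate block and fits without 1 guideless library included. In that comparison the smallest adjusted p over those settings was 0.428, in the lentiviral libraries with the replicate block, where 695 genes were under 0.05 without adjustment.

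Signs turned for 8 of the 111 named genes, none of them called with all libraries. With 1 library left out the log2 fold change of HBA1 was -0.023 to 0.38, of HBA2 -0.034 to 0.40, of HBBP1 -0.67 to 0.33, of HBD -0.25 to 0.68, of HBG1 -0.065 to 0.25, of HBG2 -0.034 to 0.25, of HSP90AA1 -0.23 to 0.29 and of TXNRD1 -0.048 to 0.18. With GC offsets it was -0.16 for HBA1 and -0.19 for HBA2. With the replicate block in only the 2 groups HBBP1 was at 0.17. HSP90AA1 was at -0.050 without the lentiviral libraries numbered 3 and at -0.18 with limma library weights. Under the settings other than leaving out 1 library, 994 of 1205 values of these 111 genes kept their direction and side of the threshold, 186 lost the call and 20 gained one; without 1 library, 414 of 666 values kept both, 236 lost the call and 4 gained one. Depth limits the genes of few counts, whose fitted changes depend on how values near 0 are treated, and 3 libraries per group, unequally spaced among the untransduced, limit the rest.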
